A study of Drosophila melanogaster with 3 samples.

Results

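Among 30000 peaks called on pooled ChIP-seq replicates of the transcription factor dmrt11E, 752 had their summit at the start of a noncoding RNA (ncRNA) gene and at no protein-coding start. A summit counted when it lay within 500 bp of an annotated transcription start site (TSS) of a gene of biotype ncRNA and over 500 bp from every protein-coding TSS. Some peaks overlap, so the 752 peaks form 680 separate regions, and they lie at 625 nearest ncRNA genes, of which 503 had 1 peak and 117 had 2. The remaining pooled peaks were 8174 at protein-coding starts and 21074 over 500 bp from both kinds of start. Chromatin came from whole embryos of Drosophila melanogaster, both sexes together and aged 2 to 10 h, from a line in which dmrt11E carries enhanced green fluorescent protein at its C-terminus (dmrt11E-eGFP). Per the sample descriptions, immunoprecipitation was against the tag, while the labels' antibody field names dmrt11E. There were 3 biological replicates of 1 group, and all lists were called against the same control. The labels name no promoter, no cell type and no number of insertions for the tagged gene, and a whole embryo mixes tissues. Peak lists hold no read depth, so precision rests on how many peaks a group has and on how far the 3 samples differ, which may be technical.

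Long noncoding RNA (lncRNA) genes are transcribed by RNA polymerase II from promoters much like those of protein-coding genes, but their transcripts carry no long reading frame. In the fly embryo they include the roX RNAs that coat the male X, RNAs of the Hox complexes, and precursors of microRNAs and Piwi-interacting RNAs. Most others carry only a catalogue name. The factor dmrt11E belongs to the DM-domain family, whose zinc-finger domain, first described in doublesex, contacts DNA in the minor groove.

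The sequences under the summits show what these sites look like. The first 4 lines give 4 of the 5 highest peaks of the group, and the next 4 give peaks at ncRNA genes with a known role. Each line is 101 bases centred on the summit, plus strand, read from the RefSeq copy of dm6, and capitals mark every unbroken run of at least 6 A or T.
lncRNA:CR31044, chr3R:29214386-29214486, pooled rank 20: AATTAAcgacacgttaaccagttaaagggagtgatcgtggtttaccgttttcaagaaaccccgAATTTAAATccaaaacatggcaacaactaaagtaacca
lncRNA:CR45595, chr3R:11780257-11780357, pooled rank 31: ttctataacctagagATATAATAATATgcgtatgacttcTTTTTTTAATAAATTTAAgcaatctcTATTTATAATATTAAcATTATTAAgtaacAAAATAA
lncRNA:CR44619, chrX:12752317-12752417, pooled rank 58: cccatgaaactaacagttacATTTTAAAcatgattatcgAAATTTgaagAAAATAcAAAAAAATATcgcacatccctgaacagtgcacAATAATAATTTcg
lncRNA:CR31840, chr2L:14024033-14024133, pooled rank 108: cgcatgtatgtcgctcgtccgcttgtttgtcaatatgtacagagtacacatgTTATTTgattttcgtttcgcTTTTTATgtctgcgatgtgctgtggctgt
lncRNA:Hsromega, chr3R:21296259-21296359, pooled rank 1013: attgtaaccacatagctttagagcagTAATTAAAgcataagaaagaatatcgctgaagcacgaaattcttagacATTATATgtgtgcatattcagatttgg
lncRNA:flam, chrX:21631681-21631781, pooled rank 1200: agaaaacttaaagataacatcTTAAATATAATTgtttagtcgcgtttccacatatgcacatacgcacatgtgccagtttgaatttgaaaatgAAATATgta
lncRNA:yar, chrX:362192-362292, pooled rank 4256: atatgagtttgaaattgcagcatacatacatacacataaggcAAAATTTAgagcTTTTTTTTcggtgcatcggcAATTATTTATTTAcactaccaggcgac
lncRNA:roX2, chrX:11578970-11579070, pooled rank 10139: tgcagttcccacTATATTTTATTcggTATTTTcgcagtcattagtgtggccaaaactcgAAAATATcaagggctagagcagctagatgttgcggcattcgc
The CR45595 window is 17.8% G or C, with a run of 18 A or T bases. The roX2 window, from a peak far lower in the list, is 43.6% G or C with a longest run of 11.

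The strongest peak of the group was at lncRNA:CR44339 (FBgn0265427, 2R, peak 12984972 to 12985433 in dm6, as are all positions here), a catalogued lncRNA with its nearest coding start 4206 bp away at Psc, a Polycomb group gene. It ranked 11 of the 30000 pooled peaks by signal, the authors' score per peak, with a summit 167 bp upstream of the TSS. Replicates 1, 2 and 3 placed it at 7, 8 and 15 in their own lists of 30000. At lncRNA:CR31044 (FBgn0051044, 3R, 29214198 to 29214655) the peak ranked 20 in the pooled list and 12, 22 and 37 in the replicates, 126 bp upstream of the TSS and 5736 bp from eEF1gamma. All replicates placed both of these within their first 37 peaks.

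The next positions varied more between replicates. At lncRNA:CR45595 (FBgn0267155, 3R, 11779977 to 11780526), 1179 bp from l(3)neo38, the pooled rank was 31 and the replicate ranks were 79, 39 and 12. At lncRNA:CR31840 (FBgn0051840, 2L, 14023884 to 14024387) the pooled rank was 108, with ranks of 23, 89 and 432 in replicates 1, 2 and 3, so replicate 3 stood lowest there. The peak at mir-9378, a microRNA inside CG17124, had the same order, at ranks 33, 180 and 567 against a pooled rank of 175. The peak at lncRNA:CR44619 (X, pooled rank 58; ranks 45, 68 and 64) lay exactly 500 bp downstream of the TSS, so it belongs to the group by the narrowest margin.

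Of the 20 highest peaks of the group, 19 were at lncRNA genes and 1 at a microRNA. Of their 20 start sites, 15 lay outside every protein-coding gene, and 11 of the summits were upstream of the TSS. All 20 were listed in every replicate, none ranked below 567 in any, and the last ranked 359 in the pooled list. The others inside coding genes were lncRNA:CR45997 in mbl, a splicing regulator of muscle, at rank 115, lncRNA:CR44478 in Socs36E, an inhibitor of JAK/STAT signalling, at rank 153, and lncRNA:CR44867 and lncRNA:CR44868 in beat-Ib, of the beaten path family of axon guidance genes, at ranks 274 and 334. The remaining peaks of the 20 were at CR44676, CR44380, CR44363, CR44700, CR45668, CR44651, CR46535, CR45352, CR43337 and CR44917, at ranks 142 to 359. CR45668 lies 662 bp from Act5C, a cytoplasmic actin, the closest coding start among the 20.

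**Figure D1:**
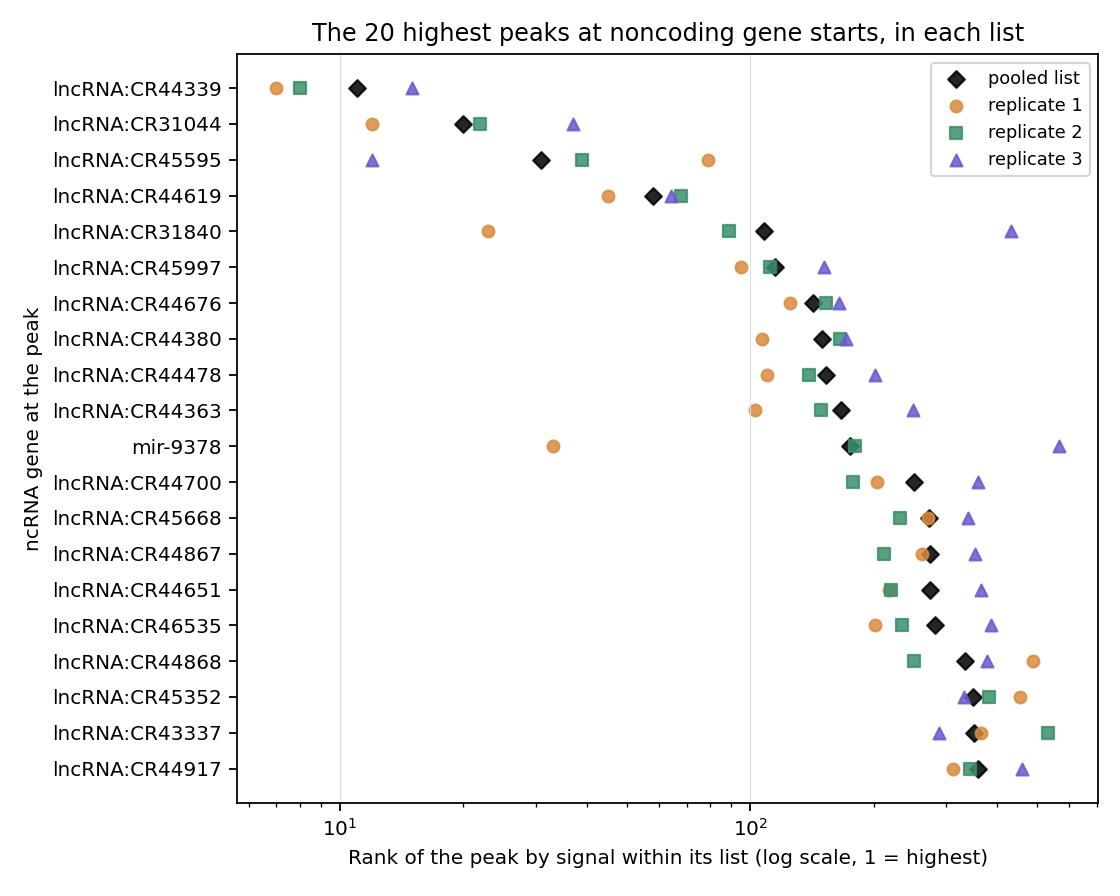
Rank of the 20 highest peaks at noncoding gene starts in the pooled list (diamonds) and in the lists of replicates 1, 2 and 3 (circles, squares, triangles), on a log axis where 1 is the highest signal. Most genes keep their symbols close together, and CR31840 and mir-9378 spread from 23 to 432 and from 33 to 567.

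The authors' reproducible set, selected by irreproducible discovery rate (IDR), held 6706 pooled peaks, the 6706 of highest signal. IDR membership and pooled rank are therefore 1 measure. Of the 752 peaks at noncoding starts, 170 were in the IDR set, which is 22.6% (exact 95% binomial interval 19.7 to 25.8%), against 22.4% of all pooled peaks, so the share is that of the background. The share was 30.9% at protein-coding starts (2526 of 8174) and 19.0% of peaks away from both (4010 of 21074). The 170 peaks were at 158 nearest ncRNA genes. The median signal was 67.5 at noncoding starts, 97.7 at coding starts and 70.9 over all pooled peaks. Within the IDR set alone the order differed, with medians of 392 at noncoding starts, 328 at coding starts and 323 over all IDR peaks. The group held 4 of the 100 highest pooled peaks and 39 of the 1000 highest, against 752 of all 30000.

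Peaks at noncoding starts varied little in share between bands of 3000 ranks. In successive bands they were 2.03 to 3.00% of the peaks, and both the first and the last band stood at 3.00%. Bands this wide do not show the 1000 highest peaks apart, of which 39 were in the group. Peaks at protein-coding starts were 38.4% of the first band and 16.8% of the last.

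**Figure D2:**
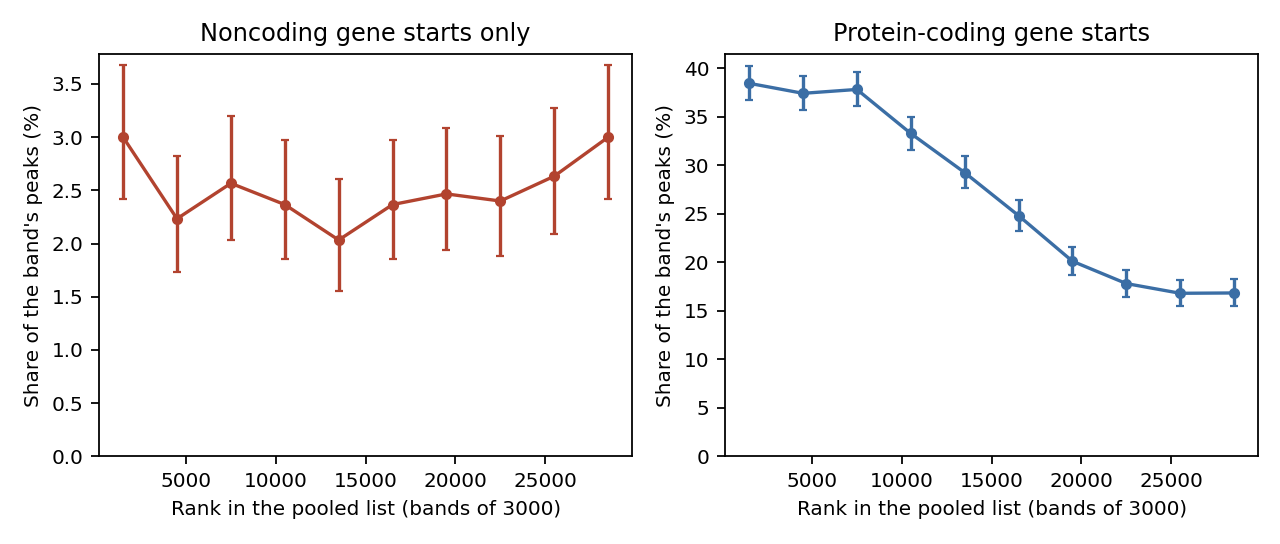
Share of the pooled peaks in each band of 3000 ranks (x axis, strongest at left) that lie at noncoding gene starts only (left) and at protein-coding starts (right), in percent, with exact 95% binomial intervals for counting error. The vertical scales differ: the noncoding share stays between 2.03 and 3.00%, and the coding share falls to 16.8% in the last band, against 38.4% in the first.

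Support in the single replicates was counted as a reciprocal overlap of at least 50% with one of the replicate's own 6706 highest peaks. Replicates 1, 2 and 3 supported 153, 169 and 176 of the 752 peaks, and 103 were supported by all 3, which is 13.7% (11.3 to 16.4%) against 10.7% of all pooled peaks. The share was 14.9% at coding starts and 8.92% away from both. No replicate supported 511 of the peaks. Of the 170 IDR peaks at noncoding starts, 99 had support in all 3 replicates, or 58.2% (50.4 to 65.7%), against 47.1% of IDR peaks at coding starts and 46.8% of all IDR peaks. The count moves with the overlap asked for: 34 of the 752, or 4.52%, with a reciprocal overlap of 75%, and 264, or 35.1%, when any of a replicate's 30000 peaks may count. With any overlap with the 6706 highest, the share was 19.8% at noncoding starts and 25.3% at coding starts. It was then 14.6% away from both and 17.6% of all pooled peaks, so the gap to coding starts depended on the overlap.

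Applied to the replicates' own lists, the same rule found 721, 737 and 668 peaks at noncoding starts in replicates 1, 2 and 3. Of these, 23.2, 23.6 and 27.7% were among the replicate's 6706 highest, against 32.1, 30.5 and 32.7% of its peaks at protein-coding starts. The 6706 highest are 22.4% of a replicate's 30000 peaks, so noncoding starts stood close to that share in replicates 1 and 2. Coding starts stood above it in every replicate. The groups did not overlap, and noncoding starts were lower than coding starts in every replicate. The differences were -8.93 to -5.04 percentage points (mean -6.94 ± 1.94, SD, n = 3). The exact two-sided sign-flip permutation p was 0.25, the smallest that 3 replicates allow. Against peaks away from both kinds of start (18.7% ± 0.255), noncoding starts stood higher by 6.11 ± 2.64 percentage points. The size of the difference from coding starts depended on the settings, at -11.5 with a TSS window of 200 bp, -2.19 with 1000 bp, -1.78 with the 3353 highest peaks and -4.17 with genes named lncRNA only, and it kept its sign in these 4.

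Seen from the genes, few noncoding starts held a strong peak. The annotation places 2751 ncRNA genes with a TSS over 500 bp from every protein-coding TSS, and 698 of them (25.4%) had a pooled summit within 500 bp of such a TSS. An IDR summit was found at 173 (6.29%, interval 5.41 to 7.26%), against 3323 of 13968 protein-coding genes (23.8%). This count takes every gene in reach of a summit, so it exceeds the 158 nearest genes. The shares of ncRNA and coding genes were not counted alike. Coding genes had 19275 distinct TSSs for 13968 genes, against 3416 for all 3289 ncRNA genes. A summit counted for an ncRNA gene only when over 500 bp from every coding TSS, a limit that coding genes did not have. The replicates' own top lists gave 6.43, 6.47 and 6.72% of ncRNA genes against 23.9, 24.0 and 23.4% of coding genes, and the groups stood apart by far more than these spreads. The share of ncRNA genes with an IDR summit was 2.83% with a window of 200 bp, 11.7% with 1000 bp and 3.74% with the 3353 strongest IDR peaks. Whether a start was transcribed in these embryos was not measured here.

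By class of ncRNA, the share of peaks in the IDR set lay below the 22.4% of all pooled peaks for antisense RNAs, and the exact intervals of the other classes included it. The lncRNA genes had 599 of the 752 peaks, 152 of them in the IDR set (25.4%, interval 21.9 to 29.1%). Genes catalogued as antisense RNA (asRNA), which overlap a gene on the other strand, had 86 peaks and 9 in the IDR set (10.5%, 4.90 to 18.9%). Entries of microRNA hairpins and mature microRNAs had 51 peaks and 8 in the IDR set (15.7%, 7.02 to 28.6%), and other ncRNAs had 16 peaks and 1 in the set. By genes, an IDR summit was at 147 of 1695 lncRNA genes (8.67%), 6 of 328 asRNA genes (1.83%) and 19 of 658 microRNA entries (2.89%). Hairpin and mature entries of the same microRNA were counted apart, so these entries are not separate loci.

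**Figure D3:**
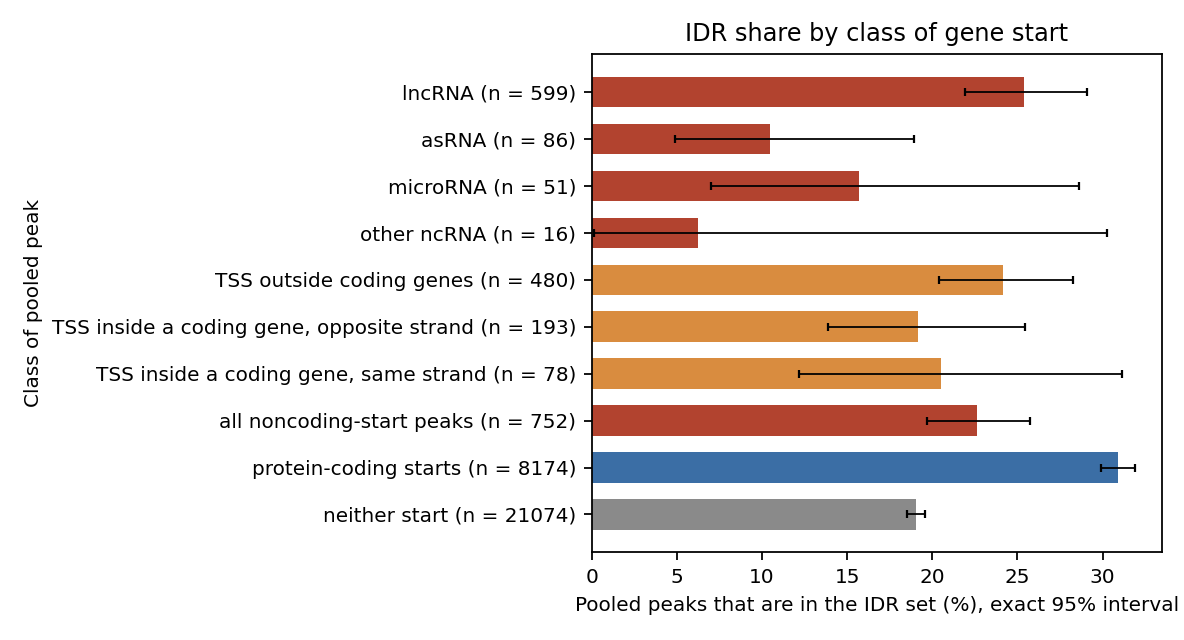
Share of pooled peaks in the IDR set, in percent, by class of the nearest ncRNA gene (top), by the place of its TSS relative to protein-coding genes (middle) and for all noncoding-start peaks, coding-start peaks and the remaining peaks (bottom). Bars are shares and whiskers exact 95% binomial intervals; lncRNA stands at 25.4%, asRNA at 10.5% and protein-coding starts at 30.9%.

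The position of the start relative to coding genes separated the peaks less. Where the TSS lay outside protein-coding genes, 116 of 480 peaks were in the IDR set (24.2%), against 37 of 193 (19.2%) where it lay inside one on the opposite strand and 16 of 78 (20.5%) inside one on the same strand. These intervals overlap. Summits in an exon of a coding gene were rarely strong, with 2 of 44 in the IDR set (4.55%, 0.555 to 15.5%). In exons of ncRNA genes it was 49 of 273 (17.9%, 13.6 to 23.0%). The counts were 38 of 148 in coding introns (25.7%) and 81 of 287 outside exons and coding genes (28.2%). Members of the group at 501 to 1000 bp from a coding TSS were in the IDR set in 18 of 104 cases (17.3%), and those at 10001 to 20000 bp in 28 of 90 (31.1%). Beyond 20000 bp it was 7 of 48 (14.6%), so the share did not increase steadily with distance.

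The strongest asRNA peak was at asRNA:CR46145 (3R, 9393710 to 9394070), 1 bp from its TSS in an intron of FER, a cytoplasmic tyrosine kinase, at pooled rank 604 and ranks of 511, 524 and 768 in the replicates. Next came CR45908 in CG1943 at 1188, CR46044 in Septin2, a septin of the cytoskeleton, at 1439, and CR44429 in gce, a juvenile hormone receptor, at 1754. Among the microRNA entries, mir-9377 ranked 584 (413, 725 and 600 in the replicates) and mir-4968 ranked 1674 (1844, 1562 and 1774).

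Bantam, a microRNA that promotes growth and blocks cell death, had an IDR peak at its mature entry (mir-ban, 3L, 642488 to 642822) with its summit 390 bp downstream, at rank 1825 and 2241, 1572 and 1843 in the replicates. The lncRNA:CR43334 gene, which spans the bantam hairpin, had 3 peaks at starts of its own. The highest of these lay 485 bp upstream at rank 3791, in the IDR set, with ranks of 6572, 4905 and 2693, and the others ranked 10657 and 20568. A mature microRNA's entry starts where the processed RNA starts, which is not where its precursor is transcribed from.

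Of a list of 40 names of well-studied noncoding genes, with synonyms, 28 matched the annotation, 14 had a peak of the group and 4 of these had one in the IDR set. Over the 2751 ncRNA genes above, 25.4% had a pooled summit and 6.29% an IDR summit, and the list was picked for genes that are well studied. Hsromega, whose nuclear RNA is induced by heat shock and gathers RNA-binding proteins in speckles, had the highest, at rank 1013 and a signal of 834 (3R, 21296124 to 21296490; 182 bp downstream of the TSS). Its replicate ranks were 973, 1096 and 1092. The flamenco locus (flam, X, 21631578 to 21631892), a source of Piwi-interacting RNAs that silence retrotransposons in the ovary, had a peak 160 bp upstream at rank 1200 and a signal of 737, with replicate ranks of 1605, 957 and 1378. The yar gene, which lies between yellow and achaete and has been tied to sleep in adult flies, had a peak 157 bp upstream at rank 4256, with ranks of 4147, 4142 and 4472. The fourth was CR43334.

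The other 10 had peaks below the IDR limit. The roX RNAs, which guide the dosage compensation complex to the male X, had ranks of 10329 at roX1 (16414, 18523 and 8109 in the replicates) and 10139 at roX2 (7934 and 7422 in replicates 1 and 2, with no overlapping peak in replicate 3). Among RNAs of the bithorax complex, which controls segment identity in the abdomen, iab8 had its better peak at rank 20341 and iab4 at 27187. The snoRNA host genes Uhg1, Uhg7 and Uhg3 ranked 9741, 11531 and 17064, the RNA subunits of RNase MRP and RNase P ranked 16177 and 18156, and acal, a regulator of embryonic dorsal closure, ranked 20275. Just outside the window, bxd and let7C had their nearest pooled summits 596 and 692 bp from a TSS. The summits at Uhg2, Uhg4, Uhg5 and Uhg8 also lay within 500 bp of a coding TSS and are not in the group. For Uhg4 that distance was 494 bp, from Boot, and its peak was in the IDR set at rank 1278.

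The limits of the rule cut through similar peaks. Besides CR44619, peaks at CR43752 (rank 22144) and CR44467 (12475) lay 500 bp from the ncRNA TSS, and just outside were peaks at CR43974 and mir-9388 at 501 bp and asRNA:CR32252 at 502 bp (ranks 24010, 13068 and 16462). On the coding side, the nearest kept were at CR44831, CR42861 and asRNA:CR44806, at 504, 511 and 513 bp from a coding TSS (ranks 8864, 28594 and 17362). Just left out, besides Uhg4, were CR43817 at 498 bp, an IDR peak of rank 4968, and asRNA:CR44724 at 494 bp (rank 16589).

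The nearest coding genes included developmental regulators, counted here by lists of genes. The highest peak near a listed gene ranked 1045, and Psc, nearest to the group's strongest peak, is on none of the lists. Of peaks whose nearest coding TSS belonged to a regulator of mesoderm, heart or muscle, 4 of 16 were in the IDR set, and 4 of 10 for genes of the Notch, Wnt, Hedgehog, Dpp, EGFR and FGF pathways. The counts were 3 of 11 for endoderm, tracheal and epidermal regulators, 1 of 7 for neural regulators, 1 of 11 for Hox and linked homeobox genes, 0 of 5 for segmentation regulators and 0 of 4 for nuclear receptors of the ecdysone cascade. These lists share genes such as stumps, and the exact interval of each includes the 22.4% of all pooled peaks. No peak of the group had a DM-domain gene as its nearest coding gene.

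The highest of these was at lncRNA:CR44739 (2L, 18899925 to 18900214), 18825 bp from tailup (tup), a LIM-homeodomain regulator of heart and amnioserosa, at rank 1045 and ranks of 860, 984 and 1233 in the replicates. For the endoderm, tracheal and epidermal list it was lncRNA:TS2 near sob, an odd-skipped family gene, at rank 1146 (1208, 1079 and 1280). For signalling it was lncRNA:CR46153 inside stumps, an adaptor of FGF receptors, at rank 2130 (3073, 2013 and 1910). For neural regulators it was CR44977 in brat, a translational repressor in neuroblasts, at rank 5442 (11003, 5605 and 4368). For the Hox list it was CR42651, 24920 bp from Deformed (Dfd), which specifies head segments, at rank 3852 (4791, 5812 and 2708), and for segmentation and ecdysone genes CR44983 near slp2 (8659) and CR44371 near Hr51 (12019), neither in the IDR set.

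Summits of strong peaks were spread more widely around noncoding starts than around coding starts. Of IDR summits at noncoding starts, 60.6% (52.8 to 68.0%) lay upstream of the nearest TSS, against 85.3% (83.9 to 86.7%) at coding starts, and 21.2% lay within 100 bp against 35.0%. In the replicates' own top peaks, 58.1, 57.5 and 63.8% were upstream at noncoding starts, against 78.1, 83.4 and 87.1% at coding starts. The difference was -23.1 ± 2.93 percentage points (SD, n = 3; exact sign-flip permutation p = 0.25, the smallest possible), and the groups did not overlap. By the rule, the noncoding set cannot hold summits near a coding TSS while the coding set has no such limit, and the accuracy of annotated noncoding starts was not tested.

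**Figure D4:**
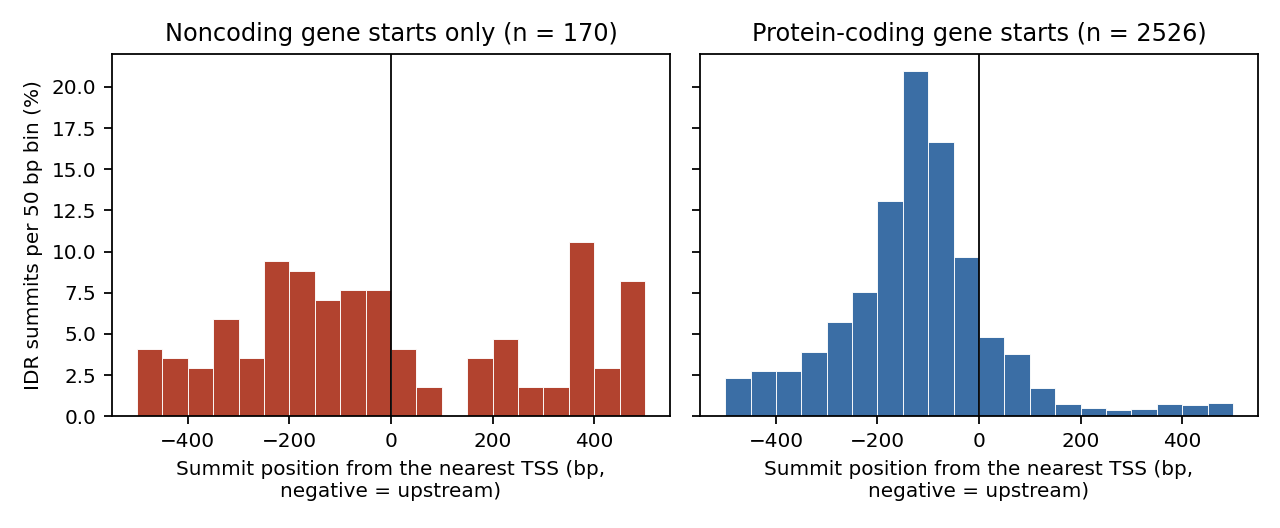
Position of IDR summits relative to the nearest TSS, in bins of 50 bp along the direction of transcription, for noncoding starts (left, 170 peaks) and protein-coding starts (right, 2526 peaks), as percent of each group. Coding summits gather at 150 to 50 bp upstream, and noncoding summits are spread over the whole window, with 60.6% of them upstream against 85.3% of coding summits.

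The strong peaks shared their base composition with the strong peaks of other places. Within 50 bp of IDR summits at noncoding starts the mean was 30.7% G or C, against 43.5% in windows of the same width centred 500 bp to either side. Peaks of the group outside the IDR set had 41.0% at the summit and 42.2% beside it. IDR peaks at coding starts had 31.6 and 45.8%, and all IDR peaks 31.2 and 43.8%. In the replicates' own top peaks the summit value was 33.4, 32.1 and 30.9% at noncoding starts and 35.2, 32.3 and 30.4% at coding starts, so the order of the groups was not the same in every replicate. Across the 752 peaks, Spearman's rho between the window's G and C content and pooled signal was -0.41, against -0.39 across coding-start peaks and -0.38 across all 30000. These describe peaks of 1 pooled list, which share libraries and a control.

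**Figure D5:**
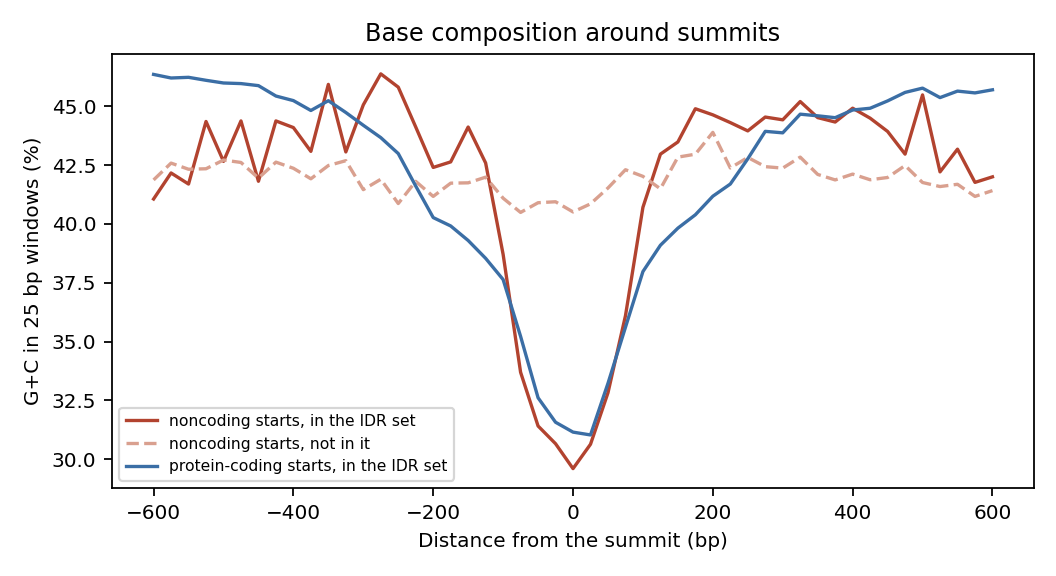
Mean G and C content in windows of 25 bp (y axis, percent) against distance from the summit in bp, for noncoding-start peaks in the IDR set (solid red), those not in it (dashed) and coding-start IDR peaks (blue). Both IDR groups dip at the summit, to means of 30.7 and 31.6% within 50 bp, and the noncoding peaks outside the IDR set stay close to their flanks.

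Unbroken stretches of A and T, as capitalised in the sequences above, were longer at the strong summits. The longest run had a median of 11 bases at IDR summits of the group and 7 in their flanks, and reached at least 10 bases in 58.2% of summit windows, 25.6% of flanks and 63.2% of IDR summits at coding starts. The 7-mer AAAATAT, the one with the largest excess at summits over flanks among IDR peaks outside the group, was within 50 bp of 17.6% of the group's IDR summits and in 6.47% of flanks. In the 6536 IDR peaks that chose it, it was at 18.4% of summits and in 6.19% of flanks. In the group's IDR peaks TTAAAAA was at 17.1% of summits and in 4.41% of flanks, against 16.6 and 5.37% in those 6536. The values for TTTAAAA were 16.5 and 3.24% in the group, against 15.6 and 4.55%.

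The DM-domain core ACAATGT, searched on both strands, was found near few of these summits. It lay within 50 bp of 14 of the 752 summits (1.86%, 1.02 to 3.10%) and in 1.46% of flanks, against 1.59% of summits at coding starts and 1.76% of all pooled summits. At the group's IDR summits it was in 2 of 170 windows, or 1.18% (0.143 to 4.19%), and in 1.76% of flanks, against 1.62% of IDR summits at coding starts and 2.19% of those away from both. The replicates' own top peaks gave 2.99, 0.575 and 1.62% at noncoding starts and 1.61, 1.70 and 1.64% at coding starts, with a difference of 0.08 ± 1.26 percentage points. For ACAATGT, a difference in either direction was not detectable at these counts. With the spacer open, ACANTGT was at 2.35% of the group's IDR summits and in 2.65% of flanks, against 3.68 and 2.30% at coding starts. The extended ACATTGTA was in 0 of 170 IDR windows, which allows up to 1.76% at 3 counts, against 0.673% at coding starts. In the replicates' own top peaks the difference for ACATTGTA was -0.620 to -0.260 percentage points, with 0, 0 and 1 windows at noncoding starts. Both IDR windows that hold the core, or its reverse complement, are given on the plus strand with the core in capitals.
lncRNA:CR45251, chr3L:11350019-11350119, pooled rank 647: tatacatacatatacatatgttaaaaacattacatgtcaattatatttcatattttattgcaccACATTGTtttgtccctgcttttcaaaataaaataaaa
lncRNA:CR46243, chrX:3363811-3363911, pooled rank 3486: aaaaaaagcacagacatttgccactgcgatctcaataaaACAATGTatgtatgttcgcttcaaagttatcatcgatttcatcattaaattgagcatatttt
The first, at lncRNA:CR45251, ranked 647 (1007, 815 and 480 in the replicates), with the core starting 14 bp past the summit, and the second, at lncRNA:CR46243, ranked 3486 (3372, 3759 and 3118), with the core starting 11 bp before it.

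Motifs of coding core promoters were less frequent at noncoding than at coding starts, and their shares were close to those of peaks away from both. The short form of the DNA replication-related element (DRE), CGATA, which is part of the full TATCGATA, was at 8.82% of the group's IDR summits and in 9.71% of flanks, against 20.6 and 12.4% at coding starts, 10.0% of IDR summits away from both kinds of start and 14.0% of all IDR summits. In the replicates' own top peaks it was lower at noncoding starts, with means of 9.79 and 21.3% and a difference of -11.5 ± 1.18 percentage points (SD, n = 3). The full TATCGATA was in 0 of 170 IDR windows, which allows a share of up to 1.76% at 3 counts, against 2.93% at coding starts and 0.150% away from both. The motif of the promoter factor M1BP, GGTCACACT, was in 0 of 752 windows, which allows up to 0.399% at 3 counts, against 1.86% at coding starts and 0.577% of all pooled summits. The share of all pooled summits includes those at coding starts, which held 152 of its 173 windows with the motif. Among IDR summits it was at 0.911% at coding starts and 0.150% away from both. The E-box CAGCTG was at 1.18% of the group's IDR summits and in 3.82% of flanks. The values were 3.05 and 4.73% at coding starts and 1.80 and 4.28% away from both, so it was rarer at summits than in flanks throughout.

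Other promoter motifs did not follow that order. TATAAA, the TATA box, which the A and T content of these windows also favours, was at 27.1% of the group's IDR summits and in 12.6% of flanks, against 26.6 and 9.01% at coding starts and 26.9% of all IDR summits. The difference between noncoding and coding starts in the replicates was -0.11 ± 0.89 percentage points. The initiator TCAGT was at 21.2% of the group's IDR summits and in 15% of flanks, against 14.8% of both summits and flanks at coding starts, 17.4% of IDR summits away from both and 16.5% of all IDR summits. The exact interval of the 21.2%, 15.3 to 28.1%, includes the last 2 of these shares. In the replicates' own top peaks TCAGT was higher at noncoding than coding starts in every replicate, by 4.74 to 8.85 percentage points (6.46 ± 2.14, SD, n = 3). Over all peaks of replicates 1, 2 and 3 it was at 17.5, 19.0 and 18.0% of noncoding-start summits. The values at coding starts were 17.6, 16.8 and 16.0%, so the order was not the same in every replicate. GGTAT, used here as a short form of Ohler motif 6, was at 14.7% of IDR summits at noncoding starts and in 8.53% of flanks. The values at coding starts were 15.1 and 10.3%, and the full motif was not searched. The replicates were compared for 16 motifs in all, and with 3 values a group none could reach an exact permutation p below 0.25.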

How the data were processed

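The authors called peaks for every one of 3 replicates and for the pool, with 1 control, on dm6, per the file headers, here the descriptions deposited with each sample. Neither aligner nor peak caller is given in the sources used here. The signal value deposited by the authors is a score whose scale differs between lists, so peaks were ranked and group medians compared within a list only. The q-value, deposited by the authors as −log10 q, was not used in any result.

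Summits were assigned with Ensembl release 115 (BDGP6.54), transposable elements left out, on the placed chromosome arms. Biotype ncRNA holds 3289 genes there, microRNA entries included. Coordinates count from 1. A replicate's top peaks are its 6706 highest signals, the size of the IDR set. A replicate's rank at a pooled peak is that of its highest peak overlapping by any base, so overlapping pooled peaks can share it. Motifs were sought in the summit window of 50 bp to each side, on both strands, and in equal windows centred 500 bp to either side. They were the DM-domain forms ACAATGT and ACANTGT and ACATTGTA, the DRE TATCGATA with its short form CGATA, M1BP GGTCACACT, E-box CAGCTG, Ohler 6 GGTAT, the GAGA factor GAGAGAG, Zelda CAGGTAG, the TATA box TATAAA, initiator TCAGT, the GATA factor AGATAAG, T-box AGGTGTGA, Pho GCCATNTT and the repeat CACACACA. Intervals are exact 95% binomial intervals and, like the limit of 3 counts behind a count of 0, cover counting error only. The members, gene lists, motifs and tests were chosen with earlier results of these data known. Named genes are those at the 20 highest peaks, the listed ncRNA genes with a peak, the highest peak per neighbour list and the peaks at the limits of the rule; further asRNA and microRNA genes, CR45251 and CR46243 were chosen after their values were seen. Procedures were tested on simulated data. Analyses used Python 3.11.15, numpy 2.4.6, scipy 1.17.1, pandas 2.3.3 and matplotlib 3.10.9.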

Additional observations from a re-analysis of the deposited data

How the results depend on the processing

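The share of the group in the IDR set, 22.6%, was 23.1 to 25.1% with TSS windows of 200 or 1000 bp, merged regions, microRNA entries left out or lncRNA genes only, and 12.9% with its 3353 highest signals alone. The share supported in every replicate, 13.7%, was 19.8% with any overlap, 4.52% with a reciprocal overlap of 75%, 35.1% with all peaks of each replicate and 14.4 to 17.8% when 1 replicate was left out. The difference in top share between noncoding and coding starts, -6.94 percentage points, kept its sign in 8 alternatives, at -7.89 to -5.95 when 1 replicate was left out and -6.39 without microRNA entries. The share of ncRNA genes with an IDR summit, 6.29%, was 2.83% at 200 bp, 11.7% at 1000 bp, 3.74% with those 3353 and 7.36% without microRNA entries. A wider window takes in more genes and a smaller set fewer peaks by construction. The excess of ACAATGT at summits over flanks, 0.40 percentage points, ranged from -0.59 to 0.40. The alternatives without microRNA entries and with lncRNA genes only were chosen after seeing the data. No paired analysis was possible because there is 1 group of samples to which a replicate block could apply; differences between classes of start were taken within each replicate. The lists give no read depth.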

Other observations

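Noncoding-start peaks were spread unevenly over the arms. Arm 2L held 24.1% of them, against 17.4% of coding-start peaks and 18.4% of all pooled peaks. The X held 13.7%, against 18.5% of coding-start peaks and 18.6% of all. The number of annotated noncoding starts on each arm, which limits where such peaks can lie, was not set beside these shares. The shares of noncoding-start peaks in the IDR set were 24.3% on 2L, 26.6% on 2R, 21.2% on 3L, 18.2% on 3R and 25.2% on X, and 1 of 11 on chromosome 4. Those of all pooled peaks on these arms were 22.9, 20.3, 22.6, 24.3, 21.4 and 20.3%, in the same order. The exact interval of the group includes the share of all pooled peaks on every arm.

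Dfd was the nearest coding gene of 6 peaks of the group, with 1 in the IDR set, and mid, a T-box gene of heart and nervous system, of 4 with 1 in the set. The IDR set left out 4 peaks of the group that overlapped top peaks of all 3 replicates. Those at CR44380 (rank 8938) and CR44868 (rank 18781) have the same intervals as higher pooled peaks with other summits. The others were at CR45478 (rank 6817; 2488, 1651 and 1127 in the replicates) and CR45565 (rank 11284; 1522, 1891 and 718). CR45565 had a second peak of the group, at pooled rank 1127 and in the IDR set. Overlapping pooled peaks can share replicate ranks, so those given for CR45565 need not belong to a site that the set left out.

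Across the 166 to 169 IDR peaks of the group listed in both replicates of a pair, Spearman's rho of signal was 0.914 for replicates 1 and 2, 0.811 for 1 and 3 and 0.897 for 2 and 3, as a description of peaks that share a control. Over all peaks of the group listed in both, 442 to 486 a pair, it was 0.785, 0.762 and 0.838.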
